A study of Mus musculus with 8 samples.

Results

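Pax6 binding was examined at 10 genes of the circadian clock, Clock, Arntl, Per1, Per2, Per3, Cry1, Cry2, Nr1d1, Nr1d2 and Dbp, in alphaTC1 cells, a mouse line that models the glucagon-producing alpha cell of the pancreatic islet. Members were the Pax6 sites to which the authors had attached one of these gene symbols. There were 23 such sites among 26244, and they belonged to 7 of the 10 genes, since Clock, Cry1 and Nr1d2 had none. The symbols chose the sites and no signal value did, but the 10 genes were chosen with earlier results of these data known.

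The circadian clock is a transcription and translation loop that runs in nearly every cell. Clock and Arntl (also called Bmal1) form a heterodimer that binds E-box sequences and activates the Period (Per1, Per2, Per3) and Cryptochrome (Cry1, Cry2) genes, whose proteins return to the nucleus and inhibit that heterodimer. In a second loop the nuclear receptors Nr1d1 and Nr1d2 (REV-ERB alpha and beta) repress Arntl, and Dbp, a PAR basic leucine zipper factor, carries the rhythm to output genes through D-box sequences. Islet cells hold such clocks, which are known to time hormone secretion. Pax6 is a transcription factor with a paired domain and a homeodomain that islet endocrine cells require.

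Chromatin immunoprecipitation with sequencing (ChIP-seq) had been done with an antibody to Pax6 after knockdown (KD) with antisense oligonucleotides. These carried either a scrambled sequence (control KD) or a sequence against Paupar, a long non-coding RNA gene next to Pax6 (Paupar KD). Each group had 2 Pax6 libraries, described by the series as biological duplicates of the cell line, and 2 input libraries that were not analysed here. No genotype, time of day or clock synchronisation is given in the labels, so the phase of the clock at harvest is not known.

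Each site was a window of 100 bp on mm10 with a concentration per group, read as a log2 value, which is the authors' mean of 2 libraries. No value per library stands behind it, so no SD can be given, and the read depth of the libraries is unknown. Positive log2 changes mean more signal after Paupar KD, and a site is called where the authors' false discovery rate (FDR) lies below 0.05. Support in single libraries comes from lists of peak summits, one per library (14311, 9983, 15611 and 17942 summits), matched within 250 bp of the middle of a site. Summit scores are the authors' own and rank summits within a list only. The alpha-cell marker genes Gcg, Irx1, Irx2, Ttr, Pcsk2 and Etv1 each had a Pax6 site. Of the beta-cell marker genes 4 of 7 had one, and the insulin genes Ins1 and Ins2 and the glucose transporter gene Slc2a2 had none. Binding is not expression, so this describes occupancy alone.

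Sequence was available for the promoters that RefSeq gives on GRCm38.p6, as windows from 250 bases before a transcript start to 50 after it. These covered 13 windows of 9 clock genes; Per2 had no entry. A single Pax6 site, that at the Nr1d1 start, reached into such a window, so its bases are printed here, 5′ to 3′ on the strand of the gene (minus), with the 57 bases that lie inside the site in capitals. The Dbp promoter (plus strand) is printed because 2 summits fell in its window, although the nearest site ended 64 bp before it. They were of control KD replicate 2 and Paupar KD replicate 2, the second of them inside the printed bases. No part of the Dbp sequence is in capitals.
Nr1d1, chr11:98775378-98775627: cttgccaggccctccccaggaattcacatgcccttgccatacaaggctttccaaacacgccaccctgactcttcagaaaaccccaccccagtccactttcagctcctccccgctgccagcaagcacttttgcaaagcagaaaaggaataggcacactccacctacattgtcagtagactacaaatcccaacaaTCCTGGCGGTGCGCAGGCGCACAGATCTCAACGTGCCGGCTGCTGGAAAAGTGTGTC
Dbp, chr7:45704997-45705246: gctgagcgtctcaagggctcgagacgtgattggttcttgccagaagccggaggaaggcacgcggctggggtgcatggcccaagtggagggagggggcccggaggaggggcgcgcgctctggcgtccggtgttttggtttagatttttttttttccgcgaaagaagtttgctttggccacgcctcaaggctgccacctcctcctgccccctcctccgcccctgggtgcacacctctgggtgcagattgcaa
The Nr1d1 window had a GC content of 54.8% and the Dbp window 62.4%, against a median of 52.4% over all 32851 windows. Of the site at the Nr1d1 start, the remaining bases lay inside the gene.

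These windows were searched on both strands for sequences that clock factors and Pax6 are known to bind. The E-box CACGTG, the target of the Clock and Arntl heterodimer, was in the windows of Per1 and Cry1 and in 7.15% of all windows. The D-box TTATGTAA, the target of Dbp, was in the Per3 window and in 0.938% of all windows. The matches are shown with 12 bases on each side, the motif in capitals, so that the response elements of the clock can be set against the position of the Pax6 signal.
Per1 E-box, chr11:69098783-69098788: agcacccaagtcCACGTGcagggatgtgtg
Cry1 E-box, chr10:85185109-85185114: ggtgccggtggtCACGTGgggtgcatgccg
Per3 D-box, chr4:151044863-151044870: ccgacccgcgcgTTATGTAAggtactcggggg
Per3 D-box, chr4:151044816-151044823: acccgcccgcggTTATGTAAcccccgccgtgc
The Per1 E-box stood 166 bases before the start of this transcript, an internal start and not the gene start from which the distances of Per1 sites are given below, and 520 bp from the middle of the nearest Per1 site. The nearest summit was 228 bp from the E-box in Paupar KD replicate 1 and 589 bp in replicate 2. For both control KD libraries it was over 26 kb away (26784 and 26753 bp). Yet the nearest Per1 site held signal in either group, 3.98 (control KD) against 4.48 (Paupar KD), per the authors' deposited table. Its change was not called (FDR 0.768), so a missing control KD summit does not mean missing signal. At the Cry1 E-box the nearest summits of the 4 libraries were 56950 to 267752 bp away. The Per3 D-boxes stood 205 and 158 bases before the start, and over 37 kb from the Per3 site (37806 and 37759 bp). The other D-box form TTACGTAA (0.119% of all windows), the cyclic AMP response element TGACGTCA (1.79%), the Pax6 paired-domain core TTCACGC (1.26%) and the homeodomain core TAATTA (5.29%) were in 0 of the 13 clock windows. The receptor half-site AGGTCA was in windows of Clock, Arntl, Per1 and Nr1d2 and in 16.3% of all windows. A match of letters is a description of the window and not a bound site, and the lack of one holds for this window alone.

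The question of the comparison was whether Pax6 occupancy at clock genes differed after Paupar KD. At 1 of the 23 sites the signal was called higher (FDR below 0.05), in an intron of Arntl, and at 0 it was called lower, according to the authors' deposited table. Over all 25234 sites that entered the authors' adjustment, 3.39% were called higher and 0.88% lower, so the share at clock genes was close to the background. Log2 changes at the 23 sites ran from -1.43 to 1.52 with a median of -0.30 (quartiles -0.69 and 0.24), against a median of -0.03 over all sites (-0.49 and 0.72), per the authors' deposited table. They were below 0 at 17 of 23 sites (73.9%), against 51.1% of all sites. The sites were stronger than most, with a median mean concentration of 5.04 against 4.42, and 10 of 23 (43.5%) stood above the 75th percentile of mean signal, against 24.9% of all sites. The deposited change declined with signal over the whole table, as the running median in the plot of change against mean concentration shows. After the median of sites of like signal was subtracted from each, the clock median was -0.12, with 9 sites above 0 and 13 below.

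**Figure D1:**
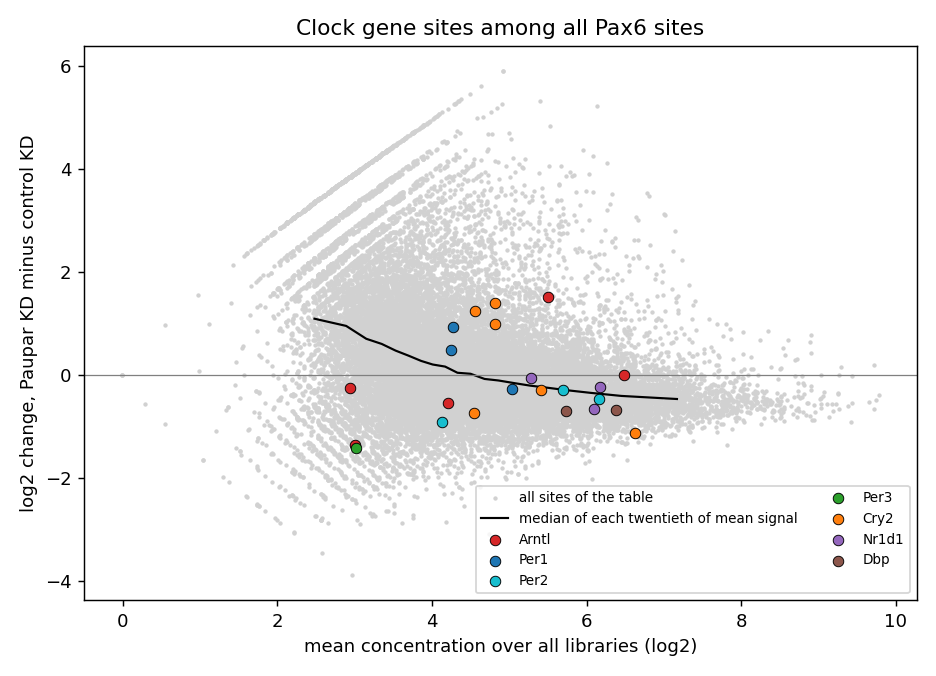
Log2 change in Pax6 signal (Paupar KD minus control KD) against mean concentration (log2) for all 26244 sites (grey) and the 23 clock gene sites (coloured by gene), with the median of each twentieth of mean concentration as a line. The Arntl site at 1.52 lies farthest above the line among the coloured points.

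By annotation, 12 of the 23 sites (52.2%) were in promoters, within 3 kb of a transcript start, against 27.5% of all sites. Another 7 (30.4%, against 36.8%) were in introns, 2 were in exons and 2 were distal. The 12 promoter sites had a median log2 change of -0.39 with 9 below 0, against -0.23 and 64.3% over all promoter sites, and the 11 other clock sites had -0.26 against 0.08, according to the authors' deposited table.

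**Figure D2:**
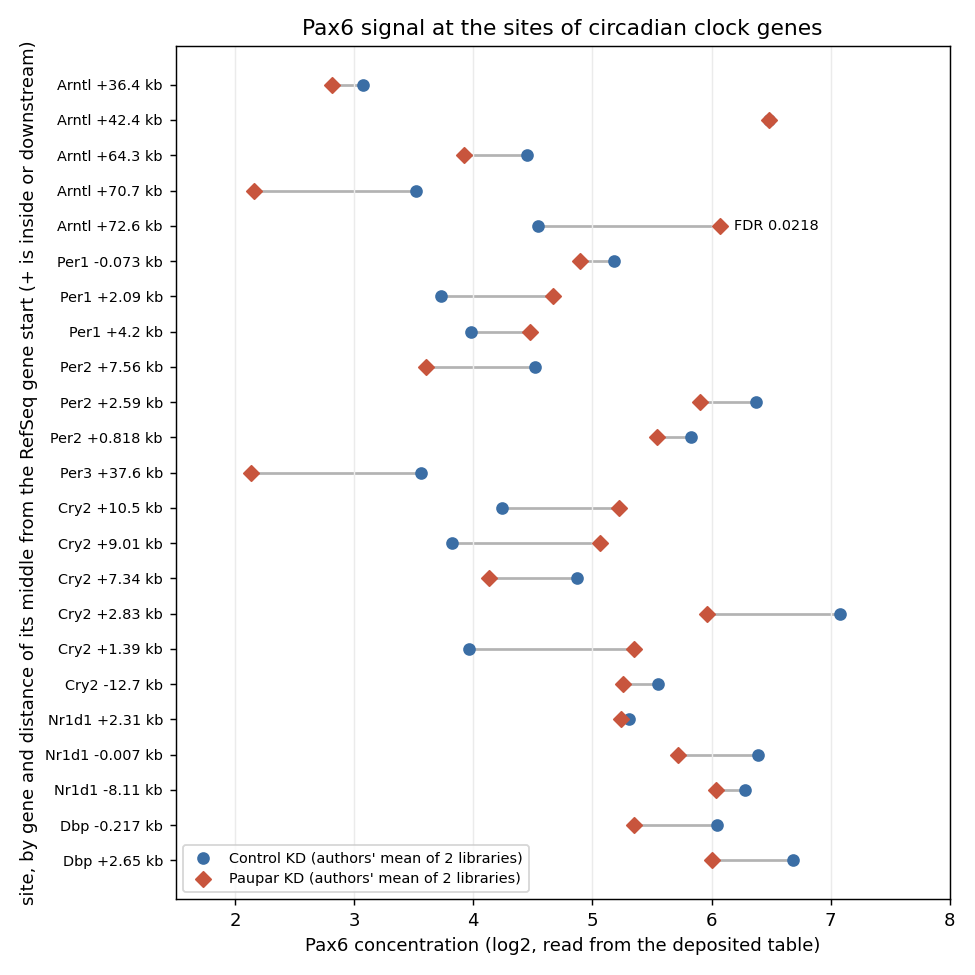
Pax6 concentration (log2, x axis) at each of the 23 clock gene sites in control KD (circles) and Paupar KD (diamonds), each the authors' mean of 2 libraries, by gene and by distance in kb from the RefSeq gene start, where a minus sign means upstream. The Arntl site at 72.6 kb is the one with an FDR below 0.05 (0.0218); at 42.4 kb the circle is hidden under the diamond (6.48 and 6.48).

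Of the genes for the Clock and Arntl heterodimer, Arntl had sites and Clock had none. Arntl, which encodes the DNA-binding partner of Clock, spans 136 kb of chromosome 7 (113178471 to 113314126) and had 5 sites, all inside the gene and none annotated as promoter. They lay 36.4 to 72.6 kb from the RefSeq gene start, in introns 1 and 2 and in an exon of another transcript. The authors' distances, taken from transcript starts inside the gene, were 7.25 to 16.4 kb, with 16.4 kb for the site 72.6 kb in. The site 72.6 kb in, in intron 2 (113251071 to 113251170), rose from 4.54 in control KD to 6.07 after Paupar KD, a log2 change of 1.52 (p = 0.000559, FDR 0.0218) per the authors' deposited table. It had a summit in all 4 libraries, scored 12.7 and 13.3 in control KD and 38.9 and 36.6 in Paupar KD. Within their own lists these were the top 44.7% and 33.6%, and the top 9.98% and 10.1%. Because the lists differ in length and the summits in position, neither scores nor ranks measure a change between libraries. The change relative to sites of like signal was 1.77.

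Summits at this Arntl site also stood at different places in the groups. The control KD summits were at 113250877 and 113250925, 48 bp apart, and the Paupar KD summits at 113251210 and 113251181, 29 bp apart. Between the groups the gap was 256 to 333 bp, with the Paupar KD summits on the side of the Arntl gene end. Relative to the middle of the site, the control KD summits stood at -243 and -195 bp and the Paupar KD summits at 90 and 61 bp. The concentrations of both groups were thus read in a window nearer to the Paupar KD summits. What part this had in the called change was not tested. Of 5250 sites with a summit in all 4 libraries, 16 (0.305%) had a gap between the groups at least as large; the search reached 250 bp to each side, and the pattern was picked out after its values were seen.

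The strongest Arntl site, 42.4 kb in and in intron 1 (113220835 to 113220934), had 6.48 in both groups (log2 change -0.01, FDR 0.993) according to the authors' deposited table. It had a summit in all 4 libraries, with scores of 77.3 and 30.3 in control KD and 57.3 and 70.7 in Paupar KD, the highest of the clock gene sites in each library. These were the top 4.38%, 11.4%, 5.52% and 3.87% of their lists.

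The remaining 3 Arntl sites were weaker and none was called. The site 36.4 kb in had 3.07 and 2.81 (FDR 0.948) per the authors' deposited table, and a summit in control KD replicate 2 only (score 3.3). In intron 2, 70.7 kb in, the signal was 3.52 in control KD against 2.16 in Paupar KD (log2 change -1.36, FDR 0.598) according to the authors' deposited table. That site too had a single summit, of control KD replicate 2 (score 4.6). The exon site, 64.3 kb in, had 4.45 and 3.92 (FDR 0.760) per the authors' deposited table, and had control KD summits in both replicates (6.8 and 9.1) but no Paupar KD summit within 250 bp. Summits of the Paupar KD libraries stood 554 and 476 bp from its middle (scores 15.1 and 19.9), so Paupar KD signal peaked nearby but outside the matching distance.

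Clock, which encodes the other subunit of the heterodimer, had no site (chromosome 5, 76209868 to 76305603). The nearest site of the table was 369 kb away and was given to Kdr, and the nearest summits were 369 to 374 kb away in the 4 libraries. Of 21627 protein-coding genes, 6964 (32.2%) likewise had no site within 50 kb.

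The negative arm held 13 of the 23 sites, and none of them was called. Per1, a light- and cyclic AMP-responsive Period gene on chromosome 11, had 3 sites within 4.20 kb of its RefSeq start, all annotated as promoter. At 0.073 kb upstream of the start (69094986 to 69095085) the signal was 5.18 in control KD against 4.90 in Paupar KD (FDR 0.844) according to the authors' deposited table. The sites 2.09 and 4.20 kb into the gene had 3.73 and 4.67 (FDR 0.578), and 3.98 and 4.48 (FDR 0.768), per the authors' deposited table. Control KD summits were missing at each Per1 site, while all 3 had one in Paupar KD replicate 2 (scores 8.8, 8.6 and 8.8). Paupar KD replicate 1 had one at the start only (8.8), with another summit 292 bp from the innermost site (score 5.5). The summits were thus on the Paupar KD side at all 3 sites, while the concentration was higher in control KD at the first.

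Per2, the Period gene most often used as a clock reporter, lies on the minus strand of chromosome 1 (91415977 to 91459351), and its 3 promoter-annotated sites all had the higher concentration in control KD. At 0.818 kb into the gene the values were 5.83 and 5.54 (FDR 0.784), and at 2.59 kb 6.37 and 5.90 (FDR 0.569), according to the authors' deposited table. The innermost, at 7.56 kb, had 4.52 and 3.60 (log2 change -0.92, FDR 0.555) per the authors' deposited table. After centring on sites of like signal the changes were 0.0, -0.12 and -1.08 in that order. Summits were sparse: control KD replicate 1 had one at 2.59 kb (9.8) and at 7.56 kb (9.4), and control KD replicate 2 one at 0.818 kb (3.8). Paupar KD replicate 2 had one at 0.818 kb (11.9) and at 2.59 kb (10), and replicate 1 had none. The 2 stronger Per2 sites therefore stood at the 81.2 and 88.9 percentile of mean signal with a summit in only 1 library of each group.

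Per3, the Period gene with the mildest effect on the core clock, had 1 site, 37.6 kb into the gene on chromosome 4 (151007011 to 151007110). The authors' annotation placed it in the last intron of a long Camta1 transcript that runs through the same stretch. Its signal was 3.56 in control KD against 2.13 in Paupar KD, a log2 change of -1.43 (p = 0.209, FDR 0.564), according to the authors' deposited table. This was the lowest of the 23 log2 changes, at the 9.7 percentile of mean signal, with 1 summit (control KD replicate 1, score 8.1).

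Cry2, which encodes a repressor of the Clock and Arntl heterodimer, had 6 sites, the most of the clock genes; 9.63% of the 10195 genes with a site had 6 or more, and the median was 1. It lies on the minus strand of chromosome 2 (92403646 to 92434085), where the antisense gene D930015M05Rik (92408892 to 92432308) overlaps it. The strongest site of all clock genes was 2.83 kb into Cry2 (92431205 to 92431304), with 7.08 in control KD against 5.96 in Paupar KD (log2 change -1.13, p = 0.00335, FDR 0.0653) per the authors' deposited table. At an FDR below 0.10, which 7.06% of all sites passed, this site would join the Arntl site, and at an FDR below 0.01 (1.59% of all sites) neither would remain. Relative to sites of like signal its change was -0.72. It had a summit in all 4 libraries, scored 6.2 and 10.9 in control KD and 6.1 and 18.8 in Paupar KD.

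The other Cry2 sites had log2 changes on both sides of 0, and none passed the threshold. At 1.39 kb into the gene the signal was 3.96 in control KD against 5.35 in Paupar KD (log2 change 1.39, p = 0.0146, FDR 0.148) according to the authors' deposited table. Further in, the values were 3.82 and 5.06 at 9.01 kb (p = 0.0479, FDR 0.279) and 4.24 and 5.22 at 10.5 kb (p = 0.084, FDR 0.368) per the authors' deposited table. The authors' annotation placed both in the last intron of a transcript of another gene, in the stretch that D930015M05Rik overlaps. The exon site at 7.34 kb had 4.87 and 4.13 (FDR 0.589) according to the authors' deposited table. Cry2 thus had 3 sites with the higher value in each group. Counting unadjusted p-values below 0.05, which 17.5% of all sites had, gave 5 of the 23 clock sites: this Cry2 site at 1.39 kb, those at 2.83 and 9.01 kb, the called Arntl site and 1 site of Dbp.

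Summit support along Cry2 was uneven. The site at 1.39 kb had a summit in Paupar KD replicate 1 only (6.9), and the one at 7.34 kb in control KD replicate 1 only (10.6). At 9.01 kb control KD replicate 1 (9.7) and both Paupar KD libraries (12 and 14.5) had one. At 10.5 kb there was one in control KD replicate 1 (6.1) and in Paupar KD replicate 2 (9.8). The distal site, 12.7 kb upstream (92446757 to 92446856), had 5.55 and 5.26 (FDR 0.794) per the authors' deposited table and summits in all 4 libraries (21.6, 11.4, 13.9 and 13.3). A further place inside Cry2 (92421821 to 92422036) had a summit in all 4 libraries (5.4, 8.4, 12.8 and 4.3) but no site in the authors' deposited table, the nearest being 1561 bp away. Of 5386 such places with summits of all 4 libraries chained within 250 bp, 23 (0.427%) had no site.

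Cry1, the other Cryptochrome gene, had no site of its own (chromosome 10, 85131700 to 85185054). The nearest lay 3.61 kb beyond its end, at the promoter of Mterf2, with 5.49 and 5.32 (FDR 0.900) per the authors' deposited table. Of the Cryptochrome genes, Cry2 thus had 6 sites and Cry1 had 0.

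**Figure D3:**
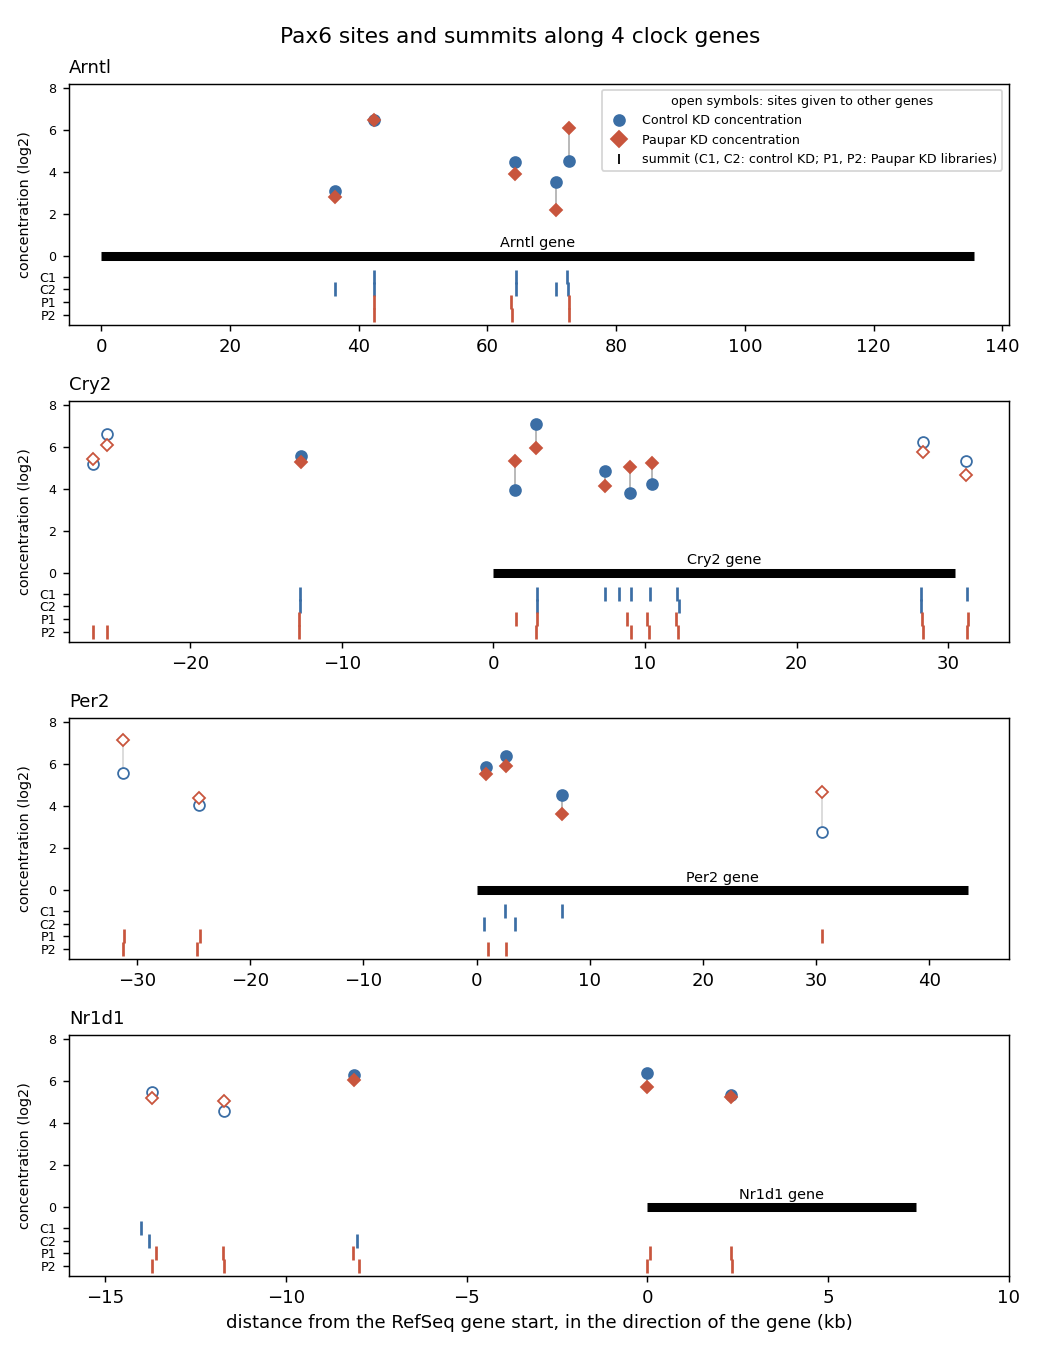
Concentrations (log2) of Pax6 sites, and below them the summits of the 4 libraries (C1 and C2 control KD, P1 and P2 Paupar KD), along Arntl, Cry2, Per2 and Nr1d1, by distance from the RefSeq gene start in kb. Black bars are the genes, filled symbols the sites of the named gene and open symbols sites given to other genes. Sites of other genes within 50 kb that lie beyond the drawn stretch are left out. The column of 4 summits about 12 kb into Cry2 has no symbol above it.

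The second loop had sites at Nr1d1 and none at Nr1d2. Nr1d1, the REV-ERB alpha gene that represses Arntl, lies on the minus strand of chromosome 11 (98767932 to 98775377) and had 3 sites, all with the higher concentration in control KD and none called. The site over its start, whose promoter bases are printed above (98775335 to 98775434), had 6.39 and 5.72 (log2 change -0.67, p = 0.0557, FDR 0.303) according to the authors' deposited table. The distal one, 8.11 kb upstream, had 6.28 and 6.04 (FDR 0.796), and the one 2.31 kb into the gene 5.31 and 5.24 (FDR 0.965), per the authors' deposited table. After centring on sites of like signal, the change turned to 0.11 at the distal site and 0.14 inside the gene, and was -0.32 at the start. Each of the 3 had a summit in both Paupar KD libraries: 7.2 and 3.6 at the start, 9.0 and 11.8 inside the gene, 7.9 and 11.4 upstream. Those at the start were the top 67.8% and 90.3% of their lists. In control KD the upstream site alone had one, in replicate 2 (5.0). At the start, the summit of Paupar KD replicate 2 was at 98775384, inside the capital letters of the printed sequence. Nr1d2, the paralog (chromosome 14, 18204056 to 18239106), had no site within 439 kb, where the nearest was given to Ube2e2, and the nearest summits were 439 to 1750 kb away.

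The output arm had sites at Dbp. Dbp, on chromosome 7 (45705100 to 45710203), had 2 promoter-annotated sites, both with the higher concentration in control KD and neither called. The site 2.65 kb into the gene (45707701 to 45707800) had 6.68 and 6.0 (log2 change -0.68, p = 0.0417, FDR 0.259) according to the authors' deposited table. The one 0.217 kb upstream (45704834 to 45704933) had 6.05 and 5.35 (log2 change -0.70, p = 0.075, FDR 0.350) per the authors' deposited table. Inside the gene the summits were in Paupar KD only (5.1 and 10), and upstream in control KD replicate 1 only (4.3). Within their own lists these were the top 82.8% and 48.2%, and the top 90.2%. In the Dbp promoter window, Paupar KD replicate 2 had a summit at 45705145 (score 8.7), inside the printed bases. Control KD replicate 2 had one at 45705283 (4.6), beyond the printed bases but still in the window. Neither was within 250 bp of the middle of a site. From the middle of the upstream site they stood 262 bp (Paupar KD) and 400 bp (control KD) away. That the upstream site had no Paupar KD match thus depends on the matching distance.

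Per library, 12 and 9 of the 23 clock sites had a summit in control KD and 11 and 15 in Paupar KD, that is 52.2%, 39.1%, 47.8% and 65.2%. Over all sites of the table the shares were 50%, 34.9%, 54.4% and 63.1%. The mean count was 10.5 ± 2.12 in control KD and 13.0 ± 2.83 in Paupar KD (SD, n = 2 libraries each), a difference of 2.5 that was within the spread (exact permutation test, two-sided, p = 0.67, where 0.33 is the smallest p that 2 against 2 libraries allow). All 23 sites had a summit in at least 1 library, 9 in exactly 1 (39.1%, against 43.9% of all sites), 8 in 2 (34.8%, against 19.3%), 2 in 3 (8.7%, against 13.3%) and 4 in all 4 (17.4%, against 20%). The 4 were the Arntl sites at 42.4 and 72.6 kb and the Cry2 sites at 2.83 kb and 12.7 kb upstream. Both control KD libraries had a summit at 5 sites (21.7%, against 26.1%), and both Paupar KD libraries at 10 (43.5%, against 36.9%). The medians of the matched scores were 9.6 and 9.1 in control KD and 8.8 and 11.4 in Paupar KD, beside list medians of 11.4, 9.0, 10.2 and 9.6.

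**Figure D4:**
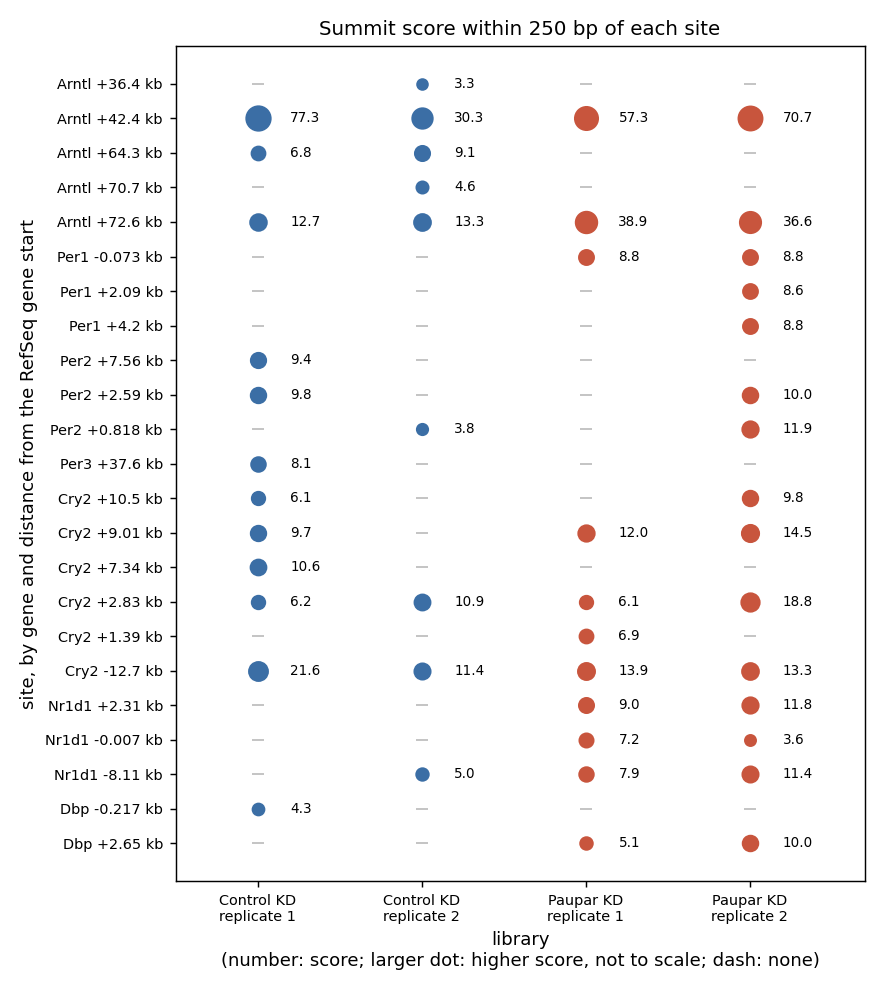
Score of the summit nearest to each of the 23 clock gene sites within 250 bp, in each of the 4 libraries; dots grow with the score, the number is the score and a dash means no summit. The Arntl site at 42.4 kb has the highest score in every column (77.3, 30.3, 57.3 and 70.7), and the Per1 rows have no dot in control KD.

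Summits and concentrations did not always point the same way. At 4 sites, Per1 at 0.073 kb upstream, Nr1d1 at its start and 2.31 kb in, and Dbp 2.65 kb in, both Paupar KD libraries had a summit and neither control KD library did (17.4%, against 8.26% of all sites). All 4 had a lower concentration with Paupar KD according to the authors' deposited table. At Nr1d1 2.31 kb in, however, the log2 change was -0.07, and it turned to 0.14 after centring on sites of like signal. Among all 2167 sites with that summit pattern, 397 (18.3%) had a log2 change below 0, and among the 557 promoter sites of the pattern 222 (39.9%). Over looser patterns, a summit in any Paupar KD library and in no control KD library was found at 7 clock sites (30.4%, against 37.8%). A summit in any control KD library and in no Paupar KD library was also found at 7 (30.4%, against 15.8%). Among them was the upstream Dbp site, which had a Paupar KD summit 262 bp from its middle. The strict reverse pattern, with control KD summits in both replicates and no Paupar KD summit, occurred at 1 clock site, the Arntl exon site (4.35%, against 1.47%). A control KD concentration of at least 6 was found at 7 clock sites, of which Nr1d1 at its start and Dbp at 2.65 kb had no control KD summit. Over all sites of such signal the share without one was 13.2%, being 23.2% at promoters and 2.57% elsewhere. Whether the number of summits called in each library had a part in this was not tested.

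By position, 58 sites lay inside the 10 genes or within 50 kb of them, and 35 of these were given to other genes. Of the 58, 2 were called higher and 0 lower, a share near the 3.39% and 0.88% of all sites, per the authors' deposited table. The second was a site given to Traf3ip1, 31.2 kb upstream of Per2 (chromosome 1, 91490515 to 91490614), with 5.58 and 7.15, a log2 change of 1.57 (p = 2.2e-05, FDR 0.00232), according to the authors' deposited table. Its summits were in Paupar KD only (79.9 and 31.4). Sites given to other genes lay inside 3 clock genes. In Per2 a site given to Hes6 had 2.77 and 4.64 (FDR 0.153), in Per3 one given to Uts2 had 4.98 and 5.05 (FDR 0.969), and in Cry2 one given to D930015M05Rik had 6.24 and 5.76 (FDR 0.525), per the authors' deposited table. The Cry2 one had a summit in all 4 libraries (27.9, 10, 17.3 and 19.8), the Per3 one in control KD only (22.4 and 7.1) and the Per2 one in Paupar KD replicate 1 only (8.5).

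A list of 33 further symbols of genes known to act on the clock, in which Chrono and Ccrn4l are second names of Ciart and Noct, had 61 sites at 19 genes, of which 60 entered the authors' adjustment. Higher signal was called at 2 of them and lower at 0, beside the 3.39% and 0.88% of all sites, and the median log2 change was -0.01, with 30 above 0 and 31 below, according to the authors' deposited table. The sites called higher included one 233 kb from the start of Rorb, a retinoid-related orphan receptor gene whose family activates Arntl (chromosome 19, 19344286 to 19344385). It had 5.44 and 6.74 (log2 change 1.3, p = 0.000305, FDR 0.0151) according to the authors' deposited table, and summits in control KD replicate 1 (36.1) and both Paupar KD libraries (67.1 and 81.9). The strongest sites of these genes by mean concentration were a pair at Bhlhe41 (DEC2), a repressor of E-box genes, with 7.51 and 6.94 (FDR 0.203) and with 7.36 and 6.89 (FDR 0.403), per the authors' deposited table. The first had a summit in Paupar KD replicate 2 only (9.4), the second in all 4 libraries (23.3, 13.2, 25.3 and 41.6). Next came the promoter of Btrc, a ubiquitin ligase subunit gene that acts on Period proteins, with 7.25 and 6.93 (FDR 0.650) according to the authors' deposited table. The Btrc site had a summit in Paupar KD replicate 2 only (20.3). The symbols without a site were Npas2, Rora, Csnk1d, Csnk1a1, Prkaa2, Fbxl21, Ciart, Chrono, Timeless, Tipin, Sfpq, Usp2, Sirt1 and Ccrn4l, while Noct had sites under its current symbol.

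The sites whose 2 group concentrations were most like those of the strongest clock site, the Cry2 site at 2.83 kb, were given to Zfp536, Maco1 and Kifc2, by Euclidean distance over the 2 values (0.036, 0.04 and 0.05). Their concentrations were 7.06 and 5.99, 7.04 and 5.96, and 7.08 and 5.91 per the authors' deposited table. The FDR was 0.0303 at Zfp536, 0.0194 at Maco1 and 0.396 at Kifc2 according to the authors' deposited table, so near-equal group values went with an FDR on either side of that of the Cry2 site (0.0653).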

How the data were processed

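Pax6 ChIP-seq of alphaTC1 cells was represented by 4 per-library summit lists and 1 table of 26244 sites. Bowtie2, MACS2, DiffBind and ChIPseeker were used on mm10, per the submitters' processing notes, which name no versions. Which test DiffBind ran, how libraries were scaled and how inputs entered is not given in the sources used here. As deposited, the authors' table has concentrations and a fold per site, read as log2 values (the base is not stated); the fold was control KD minus Paupar KD and its sign was turned. The authors' deposited p-value and FDR were used as given, and no test across sites was run. At 1010 sites the FDR was 1 with a lower p-value, so 25234 sites entered the adjustment. The deposited summit score was read as −log10 of a q-value from its lowest values (2.0 to 2.01). Of the lines of the authors' table of sites, 1 named no site and was left out. The name inside the summit list of control KD replicate 2 has a different replicate number; the list was kept with the sample that holds it.

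Gene symbols are the authors' nearest-gene annotation. Gene spans, promoter windows and sequences came from RefSeq (GRCm38.p6). Summits were matched within 250 bp of the middle of a site and chained within 250 bp of each other. Percentiles and centring used all sites, in 20 bins of mean concentration. The members and the lists of other clock genes and cell markers were chosen with earlier results of these data known. Every site of the 10 genes is reported; other clock genes are named where called, without a site, or among the 3 strongest, except that some genes of these lists are not reported here; neighbours within 50 kb and the 3 nearest sites by concentration were also taken. Alternatives covered the FDR threshold, gene assignment by position, centring, a minimum concentration of 3, 1 site per gene, summit distances of 100 and 500 bp, a minimum score of 5, equal lists and left-out libraries. The matching and centring steps were tested on simulated data. Python 3.11.15, numpy 2.4.6 and pandas 2.3.3 were used. Coordinates are 1-based. The only p-values computed here were those of exact permutation tests on summit counts. With 2 libraries per group, they set the difference in mean count against the spread between these libraries and cannot fall below 0.33.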

Additional observations from a re-analysis of the deposited data

How the results depend on the processing

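The number of clock gene sites called higher was 1 at an FDR below 0.05; it was 0 at an FDR below 0.01, 3 at an unadjusted p below 0.05 and 2 with sites assigned by position within 50 kb. The number called lower was 0, and became 1 at an FDR below 0.10 and 2 at an unadjusted p below 0.05. The median log2 change of -0.30 was -0.12 after centring on sites of like signal and -0.47 over the strongest site of each gene; the other 3 alternatives gave -0.30 to -0.27. Centring on like signal turned the sign at 3 of the 23 sites and made the called Arntl change 1.77. The difference of 2.5 in summit counts per library ran from 2.0 to 4.5 over the alternatives, with exact permutation p-values of 0.33 to 1.0; leaving out the 6 Cry2 sites gave 2.0, an alternative chosen after seeing the data. With lists cut to the 9983 best summits of each library the counts were 8, 9, 7 and 14. Sites with a summit in both control KD libraries numbered 5, and 9 to 12 when a single library was asked for. The corresponding Paupar KD count of 10 became 11 to 15.

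With the replicate block, also added after seeing the data, the paired difference in summit counts was again 2.5 (exact permutation p = 1.0, where 0.5 is the smallest that 2 pairs allow). Deviations of same-numbered libraries correlated at -0.01 over all sites, so the numbers were not taken to pair the samples. No paired analysis was possible for the authors' comparison because its table holds group means. Without values per library, no spread can be set beside a concentration, and read depth is unknown.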
